A study of Mus musculus with 8 samples.

Results

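The genes for voltage-gated sodium, calcium and potassium channels, for the other potassium channels and for their auxiliary subunits were followed from mouse embryonic stem cells (ESC) to cells differentiated with retinoic acid (RA-DIFF). They were taken from the RNA-Seq count table as the protein-coding genes whose symbol starts with Kcn, with Scn and a digit, or with Cacn. This gave 132 of the 32567 genes in the table, or of its 19027 protein-coding genes, and the rule itself uses names and gene types only. ESC came off feeder cells for 4 passages before embryoid bodies were formed from them, and RA-DIFF are the cells of embryoid bodies grown with retinoic acid. At each stage there was a wild-type line and a line labelled huntingtin-null Hdhex4/5/ex4/5 (Htt-null), which carries the targeted allele on both copies of the mouse orthologue of the Huntington's disease gene. A condition is a single RNA-Seq library here, so no difference has a replicate check and the differences carry no test.

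Counts per library added up to between 63617410 and 110569127. Levels are given in CPM, counts scaled to a common library total and corrected with TMM factors. A gene without reads may have had as many as 3, which equals 0.0268 to 0.0460 CPM. Differences are given as log2 ratios of scaled counts with exact 95% counting intervals, which cover counting error only and not the spread between cultures. A member is called higher or lower where its log2 ratio lay beyond 0.75 in either direction, its average log2 CPM over the 4 libraries was above 0 and the counting interval left out a ratio of 1. The targeted gene, Htt, had 14385 counts in ESC labelled wild type and 7260 in ESC labelled Htt-null, but 8212 in the wild-type-labelled RA-DIFF library and 9722 in the one labelled Htt-null. Htt thus went against its label in RA-DIFF, with a log2 ratio of 0.43 after -0.58 in ESC. For 9 of 9 members that could be read in the study's own listing, the wild-type RA-DIFF value lay nearer to the column labelled Htt-null, whereas in ESC 9 of 9 lay nearer to the column of their own label. Over all 1396 genes that could be read there, 1389 lay nearer to the other label's column in RA-DIFF and 1387 nearer to their own in ESC. The RA-DIFF libraries are therefore named by their labels throughout, and with the labels exchanged every difference between them keeps its size and takes the opposite sign.

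Sodium and calcium channels are built around a large pore-forming alpha subunit that opens on depolarization, with beta, alpha2delta or gamma subunits that set its trafficking and gating. Potassium channels assemble from smaller subunits: voltage-gated Kv channels end the action potential, inward rectifiers (Kir) and K2P leak channels hold the resting potential, and calcium-activated channels follow firing. Neurons switch on many of these genes as they mature, and the subunit mix sets how a neuron fires. Some members act elsewhere as well, for example Cacna1s in skeletal muscle, Kcnmb1 in smooth muscle and the Cacng transcripts whose proteins are subunits of AMPA-type glutamate receptors.

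Of the 132 members, 88 were above the expression limit, against 47.6% of all genes and 73.2% of protein-coding genes. Among these 88, 48 had more than 1 CPM in the mean of both stages, 32 in RA-DIFF alone and 8 in ESC alone, where 82.7%, 9.66% and 7.62% of all genes above the limit did. The summed level of all 132 was 571 CPM in ESC labelled wild type and 561 CPM in ESC labelled Htt-null. It was 1565 CPM in the wild-type-labelled RA-DIFF library and 1334 CPM in the one labelled Htt-null. The ESC libraries differed little from each other, and both RA-DIFF libraries stood well above them. More than 3 counts were found for 114 members in either ESC library, and for 124 and 126 members in the RA-DIFF libraries labelled wild type and Htt-null.

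**Figure D1:**
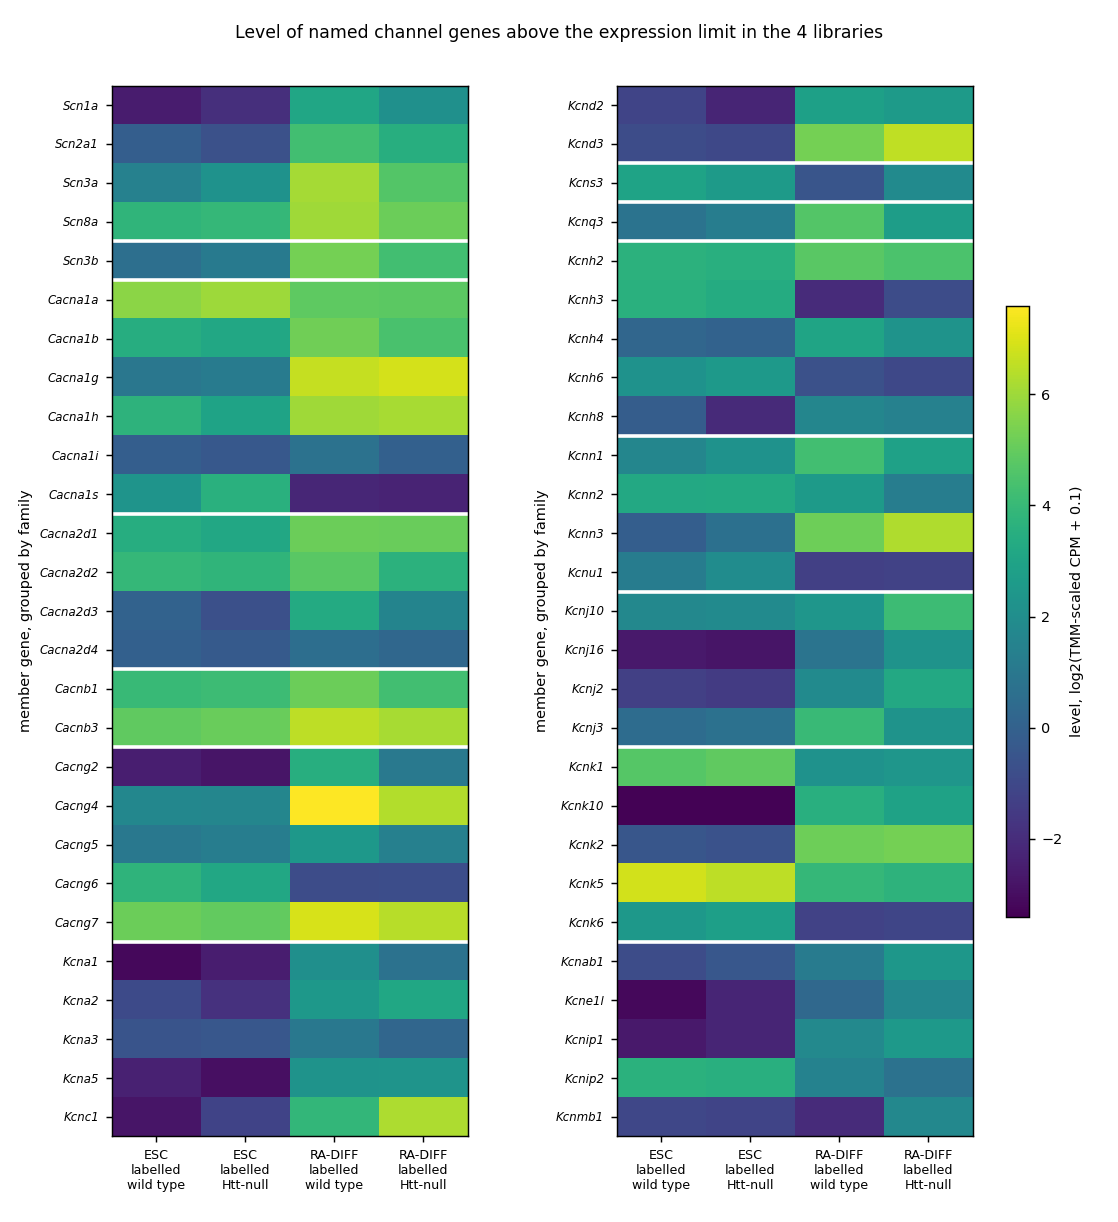
Level of 54 named members above the expression limit in the 4 libraries, as log2 of TMM-scaled CPM plus 0.1 (colour), with genes grouped by family between white lines. Most families brighten from ESC to RA-DIFF, while Kcnk5, Kcnk1, Cacng6, Kcnh3 and Cacna1s are brighter in ESC.

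Single genes were ranked by CPM per kilobase of exon. In ESC the highest member was Kcnk5, a K2P leak channel opened by alkaline pH, with 33.7 CPM per kilobase in cells labelled wild type and 26.4 in cells labelled Htt-null. Cacng7, a gamma subunit that also joins AMPA receptors, had 14.2 and 12.8 CPM per kilobase, and Kcnk1, another K2P channel, had 11.7 and 13.6. These were followed by Cacnb3, Cacng6, Cacna1a, Cacnb1, Kcnip2 and Kcnh2, the last with 2.60 and 2.35 CPM per kilobase. The 10 highest members made up 56.9% and 55.5% of the summed CPM of all members in the ESC libraries labelled wild type and Htt-null.

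In RA-DIFF the order was led by gamma and beta subunits of calcium channels. Cacng7 had 50.1 CPM per kilobase in the wild-type-labelled library and 34.7 in the one labelled Htt-null, and Cacng4, which also modulates AMPA receptors, had 53.9 and 22.4. Cacnb3, a cytoplasmic beta subunit that carries alpha1 subunits to the membrane, had 22.7 and 18.0 CPM per kilobase. The T-type calcium channels Cacna1g (9.73 and 11.6) and Cacna1h (6.73 and 7.21), which open near the resting potential, were the highest alpha1 subunits, and the mechanosensitive leak channel Kcnk2 (7.33 and 7.86) stood between them. Kcnd3, Cacnb1, Kcnn3 and Scn3b completed the first 10, which made up 48.3% and 50.6% of the summed CPM. Only Cacng7, Cacnb3 and Cacnb1 were among the first 10 at both stages.

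By family, the sums moved in different directions between the stages. The K2P channels, 14 members, had sums of 149 CPM in ESC of cells labelled wild type and 131 CPM in cells labelled Htt-null, and had 70.8 and 67.5 CPM in RA-DIFF. The gamma subunits, 8 members, had 54.9 and 47.0 CPM in ESC and 338 and 178 CPM in RA-DIFF. The sodium channel alpha subunits, 10 members, had 18.4 and 22.0 CPM in ESC and 166 and 88.2 CPM in RA-DIFF. The pore-forming Kv1 to Kv4 subunits, 16 members, had 36.6 and 35.9 CPM in ESC and 131 and 230 CPM in RA-DIFF. The K2P sum was thus lower in RA-DIFF and the other 3 sums higher, and within RA-DIFF the wild-type-labelled library was the higher one for gamma and sodium channel subunits and the lower one for Kv1 to Kv4.

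**Figure D2:**
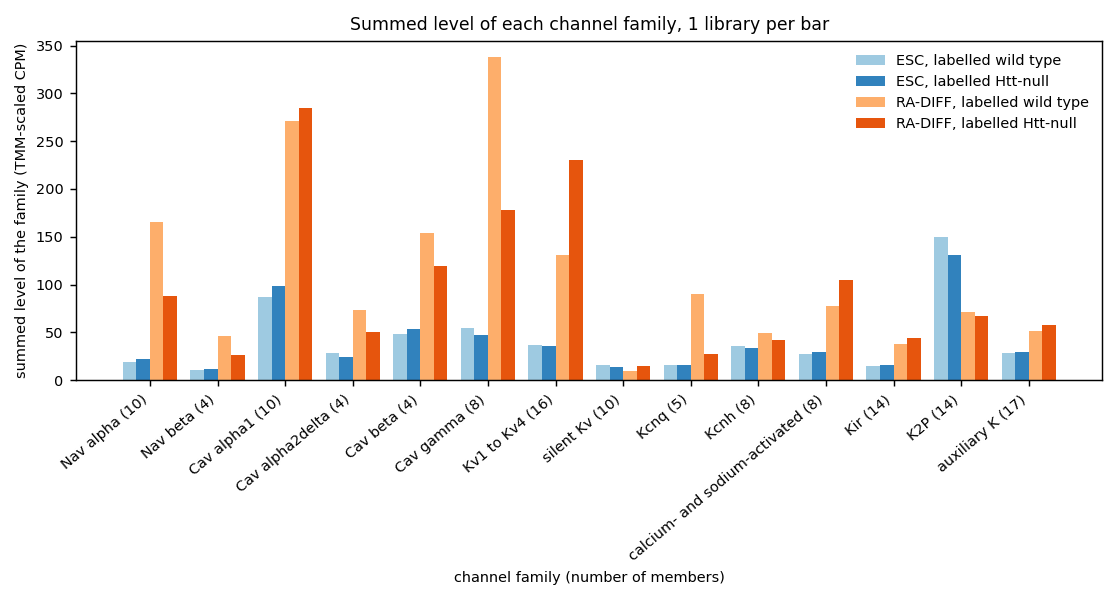
Summed TMM-scaled CPM of each of the 14 families (number of members in brackets), 1 bar per library. K2P is the 1 family besides silent Kv whose ESC bar labelled wild type exceeds its RA-DIFF bar of the same label (149 against 70.8 CPM), and the gamma subunits reach 338 CPM in the wild-type-labelled RA-DIFF library.

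The first question was how the channel genes respond to differentiation in each line. In cells labelled wild type, 59 of the 88 members were higher in RA-DIFF than in ESC and 17 were lower, where 34.0% and 26.2% of all 15492 genes above the limit were. In the Htt-null-labelled line, 52 were higher and 16 lower, where 34.4% and 24.9% of all genes were. The median log2 ratio of the members above the limit was 1.83 in cells labelled wild type and 1.57 in cells labelled Htt-null, against 0.12 and 0.17 over all genes. Counted without the expression limit, over members with more than 3 counts in either library, 75 of 129 were higher and 30 lower in cells labelled wild type (31.3% and 27.3% of all genes), and 67 of 128 were higher and 28 lower in cells labelled Htt-null (29.4% and 28.2%). In both lines together, 48 members were higher (28.8% of all genes), 15 were lower (21.1%) and 1 moved in opposite directions (0.581%). A further 11 were higher in cells labelled wild type alone (4.93% of all genes) and 3 in cells labelled Htt-null alone (5.13%), 1 was lower in each line alone (4.66% and 3.52%), and 8 were past the limits in neither. These are bulk samples, in which more cells of a type and more RNA per cell cannot be told apart. Neuron markers moved with this response: 11 of 12 were higher in RA-DIFF in each line and 1 lower in cells labelled Htt-null, and their summed level went from 294 and 333 CPM in ESC to 3053 and 1448 CPM in RA-DIFF. Of 10 neural progenitor markers 9 were higher and 1 lower in each line, from sums of 626 and 556 CPM to 2882 and 2831 CPM, and the 4 astrocyte markers above the limit, of 5, were higher in each line, from 47.2 and 46.6 CPM to 233 and 363 CPM. All 12 fibroblast and mesenchyme markers were higher as well, from sums of 45.8 and 29.4 CPM to 657 and 2531 CPM. All 10 pluripotency markers were lower in each line, from sums of 5755 and 4980 CPM to 65.7 and 17.5 CPM, and the part of these cell types in the members' response was not tested.

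**Figure D3:**
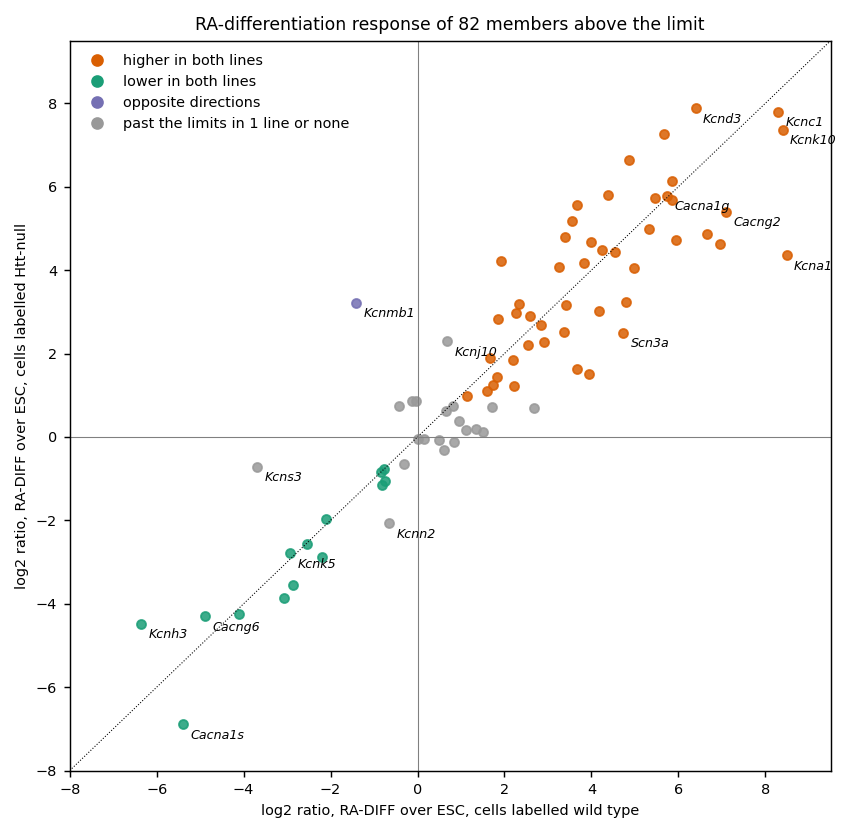
Log2 ratio of RA-DIFF over ESC for 82 of the 88 members above the expression limit, in cells labelled wild type (horizontal axis) and cells labelled Htt-null (vertical axis), with equal ratios on the dotted line and Kcnk10 drawn at its bound against 3 counts. Of those plotted, 47 higher in both lines fill the upper right, 14 lower in both the lower left, and Kcnmb1 alone lies in the upper left past the limits.

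The sodium channel alpha subunits Scn1a, Scn2a1, Scn3a and Scn8a were higher in RA-DIFF in both lines. Scn3a, the alpha subunit best known from embryonic brain, had 224 counts in ESC labelled wild type, 291 in ESC labelled Htt-null, 7719 in the wild-type-labelled RA-DIFF library and 2480 in the one labelled Htt-null, so that the stages did not overlap. Its level was 26.7-fold higher in RA-DIFF in cells labelled wild type (log2 ratio 4.74, interval on the same scale 4.55 to 4.94) and 5.65-fold higher in cells labelled Htt-null (2.50, 2.32 to 2.68). Scn8a, which in the adult clusters at nodes of Ranvier and axon initial segments, was already present in ESC, with 13.8 CPM in cells labelled wild type and 15.0 CPM in cells labelled Htt-null, and reached 64.6 and 35.2 CPM in RA-DIFF. Scn1a, the alpha subunit of many inhibitory interneurons, went from 6 and 11 counts in ESC to 957 and 413 in RA-DIFF. Scn2a1, a neuronal alpha subunit, went from 71 and 34 counts to 2142 and 1112.

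Beta subunits, which are also cell adhesion proteins, differed among themselves. Scn3b was 27.7-fold higher in RA-DIFF in cells labelled wild type (123 to 4408 counts) and 9.41-fold higher in cells labelled Htt-null (132 to 1875 counts). Scn2b kept its level within the limits in both lines, with 5.07 and 5.10 CPM in ESC and 5.61 and 4.93 CPM in RA-DIFF.

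The 9 calcium channel alpha1 subunits above the limit went different ways. Among the T-type genes, Cacna1g went from 160 and 140 counts in ESC to 11051 and 11605 in RA-DIFF, 53.5-fold higher in cells labelled wild type and 54.9-fold higher in cells labelled Htt-null. Cacna1h, present in ESC with 1123 and 507 counts, had 7360 and 6931 in RA-DIFF, and Cacna1i, close to the expression limit, had 72 and 44 counts in ESC and 179 and 86 in RA-DIFF. Thus 2 of the 3 T-type genes were higher in both lines, and Cacna1i in cells labelled wild type alone. Cacna1b, the N-type channel of presynaptic terminals, was 3.33-fold higher in RA-DIFF in cells labelled wild type and 2.38-fold higher in cells labelled Htt-null. The L-type gene Cacna1c and the R-type gene Cacna1e were also higher in both lines, with log2 ratios of 4.00 and 4.69 for the first and 3.83 and 4.17 for the second.

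In the other direction, Cacna1a, the P/Q-type channel of presynaptic terminals, had 4411 and 4079 counts in ESC and 3255 and 2771 in RA-DIFF, 1.75-fold and 2.22-fold lower. Cacna1s, the L-type channel of skeletal muscle, had 422 counts in ESC labelled wild type and 786 in ESC labelled Htt-null, but 13 and 10 in RA-DIFF. Its level was 41.9-fold lower in RA-DIFF in cells labelled wild type (log2 ratio -5.39, interval -6.31 to -4.60) and 119-fold lower in cells labelled Htt-null (-6.89, -7.96 to -6.00), the second of which was the largest decrease among the members above the limit. The gamma subunit Cacng6, which like Cacng1 belongs to the muscle-type gamma subunits, was lower too, from 1171 and 600 counts to 51 and 46. Among 10 cardiac and skeletal muscle markers, 5 were above the limit, of which 3 were lower in RA-DIFF in each line, while 2 were higher in cells labelled wild type and 1 in cells labelled Htt-null, and their summed level was low in every library, between 5.68 and 19.2 CPM.

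The gamma subunits that accompany AMPA receptors were higher. Cacng4 went from 272 and 199 counts in ESC to 21591 in the wild-type-labelled RA-DIFF library and 7878 in the one labelled Htt-null, 61.4-fold and 26.2-fold higher. Cacng2, known as stargazin, had 7 and 3 counts in ESC and 1244 and 191 in RA-DIFF, with log2 ratios of 7.10 (interval 6.06 to 8.42) and 5.40 (3.83 to 7.69). Cacng7 and Cacng8 were higher in both lines, with log2 ratios of 1.82 and 1.44 for the first and 1.84 and 2.84 for the second, and Cacng5 was higher in cells labelled wild type alone (1.51 against 0.12).

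Of the beta subunits, Cacnb2, Cacnb3 and Cacnb4 were higher in both lines, and Cacnb1 in cells labelled wild type alone, with 16.2 and 17.4 CPM in ESC and 34.8 and 19.5 CPM in RA-DIFF. Cacnb2 had the largest ratios of the 4, 5.32 and 5.00 on the log2 scale. Of the alpha2delta subunits, which raise the number of channels at the membrane, Cacna2d1 and Cacna2d3 were higher in both lines, Cacna2d2 in cells labelled wild type alone, and Cacna2d4 in neither.

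Of the 13 Kv1 to Kv4 subunits above the limit, 10 were higher in cells labelled wild type and 8 in cells labelled Htt-null, and 2 were lower in each. Kcnc1, a fast delayed rectifier of neurons that fire at high rates, had 4 counts in ESC labelled wild type, 22 in ESC labelled Htt-null, 1625 in the wild-type-labelled RA-DIFF library and 7373 in the one labelled Htt-null. It was 314-fold higher in RA-DIFF in cells labelled wild type (log2 ratio 8.30, interval 6.94 to 10.17) and 222-fold higher in cells labelled Htt-null (7.79, 7.19 to 8.47). Kcnd3, an A-type channel, went from 40 and 26 counts to 4356 and 9235, 84.3-fold and 235-fold higher. In RA-DIFF, Kcnd3 had the highest level per kilobase of the 16 Kv1 to Kv4 genes by the mean of both libraries. Its relative Kcnd2 went from 30 and 7 counts to 807 and 589, whereas Kcnd1 was lower, with 10.9 and 10.7 CPM in ESC and 6.42 and 5.14 CPM in RA-DIFF (in cells labelled wild type within the limit, at -0.72, when scaled by library size alone).

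Among the Kv1 genes, Kcna1, a delayed rectifier of axons, had 1 and 5 counts in ESC and 466 and 154 in RA-DIFF. With so few counts in ESC its log2 ratios, 8.49 (interval 6.01 to 13.80) and 4.35 (3.10 to 5.99), have wide intervals. Kcna1 lies inside the annotated span of Kcna5 on the same strand, so reads of the pair can be confused. Kcna5 had 8 and 2 counts in ESC and 523 and 466 in RA-DIFF. Kcna2 went from 37 and 12 counts to 612 and 855, and Kcna3, known from T cells, from 51 and 43 to 215 and 106, the latter past the limits in cells labelled wild type alone.

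Kcnq3, a subunit of the slow M-current channels that damp repetitive firing, had 142 and 150 counts in ESC and 2841 and 639 in RA-DIFF, 15.5-fold and 2.82-fold higher.

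All 8 Kcnh genes (the ether-a-go-go family) were above the limit, and they went both ways. Kcnh3 had 1015 and 664 counts in ESC and 16 and 45 in RA-DIFF, 82.0-fold lower in cells labelled wild type (log2 ratio -6.36, interval -7.17 to -5.65) and 22.3-fold lower in cells labelled Htt-null (-4.48, -4.95 to -4.04). Kcnh6 was 8.45-fold and 14.6-fold lower, from 386 and 376 counts to 59 and 39. Kcnh4, in the same subfamily as Kcnh3, was 7.51-fold and 4.85-fold higher, and Kcnh8, the third gene of that subfamily, 3.77-fold and 18.8-fold higher. Kcnh2, the hERG channel of cardiac repolarization, was present at each stage, with 12.6 and 11.4 CPM in ESC and 27.7 and 22.5 CPM in RA-DIFF. The silent Kv subunits, which form channels only together with Kcnb proteins, had 3 of 10 members above the limit. Kcns3 was the most abundant of them per kilobase in ESC and was 12.9-fold lower in RA-DIFF in cells labelled wild type, from 681 to 68 counts, with 384 and 352 counts in cells labelled Htt-null.

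Among the calcium-activated channels, Kcnn3, an SK channel, went from 71 and 97 counts in ESC to 4013 and 7719 in RA-DIFF, 43.7-fold and 52.7-fold higher. Kcnn1, another SK channel, was 6.39-fold higher in cells labelled wild type (264 to 2180 counts) and had 298 and 728 counts in cells labelled Htt-null, a log2 ratio of 0.69. Kcnn2 had 9.29 and 9.52 CPM in ESC and 5.91 and 2.26 CPM in RA-DIFF, and was lower past the limits in cells labelled Htt-null alone. The 3 SK channels thus differed in their response. Kcnu1, a channel of sperm, was 7.33-fold and 11.7-fold lower, from 193 and 247 counts to 34 and 32.

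Among the inward rectifiers, Kcnj2, a strong rectifier, went from 26 and 17 counts to 394 and 930, and Kcnj16, which pairs with Kcnj10, from 5 and 3 counts to 187 and 455. Kcnj10, the main rectifier of astrocytes, had 278 and 231 counts in ESC and 579 and 1713 in RA-DIFF, and was past the limits in cells labelled Htt-null alone (log2 ratio 2.30, interval 2.10 to 2.50, against 0.69). Kcnj3, a subunit of the G-protein-gated rectifiers, went from 113 and 99 counts to 1852 and 465. The 5 K2P channels above the limit divided by gene. Kcnk5, Kcnk1 and Kcnk6 were lower in both lines, with log2 ratios of -2.93 and -2.79, -2.54 and -2.58, and -4.10 and -4.24. The mechanosensitive pair Kcnk2 and Kcnk10 was higher: Kcnk2 went from 54 and 36 counts to 4062 and 3828, and Kcnk10 from 0 counts in both ESC libraries to 1308 and 749. With each 0 set at the 3 counts that it allows, Kcnk10 was 337-fold higher in cells labelled wild type (log2 ratio 8.40, interval from 8.10 upward). In cells labelled Htt-null it was 165-fold higher on the same footing (7.37, from 7.07 upward).

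Of the auxiliary potassium channel subunits, Kcnip1, which binds Kcnd channels, went from 5 and 7 counts to 371 and 544, 57.4-fold and 51.5-fold higher, while its relative Kcnip2 was 4.62-fold and 7.38-fold lower, from 1065 and 758 counts to 298 and 155. Kcnab1, a beta subunit of Kv1 channels, was 4.78-fold and 7.89-fold higher. Kcne1l, a small single-span subunit, had 1 and 7 counts in ESC and 130 and 307 in RA-DIFF.

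Kcnmb1, the beta subunit that raises the calcium sensitivity of large-conductance channels in smooth muscle, was the member that moved in opposite directions. It had 33 counts in ESC labelled wild type, 23 in ESC labelled Htt-null, 16 in the wild-type-labelled RA-DIFF library and 322 in the one labelled Htt-null. The log2 ratio of RA-DIFF over ESC was -1.41 in cells labelled wild type (interval -2.37 to -0.51) and 3.21 in cells labelled Htt-null (2.60 to 3.89). On GRCm38, Kcnmb1 is annotated at chr11:33963013-33973641 (plus strand), inside the span of Kcnip1 on the minus strand (chr11:33629339-33993152). Whether the counting kept the strands apart was not tested here, so reads of the pair may be mixed. The partner moved differently: Kcnip1 had 371 and 544 counts in the same RA-DIFF libraries.

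Promoter sequences were taken from RefSeq on GRCm38.p6, as 250 bases before to 50 bases after each annotated start, to see what members that moved together share in sequence. Of the 132 members, 97 had an entry. CpG dinucleotides were counted because they mark the main promoter classes of mammals, and 4 promoters are shown with each CpG in capitals, 5′ to 3′ on the gene's own strand. Kcnmb1 (chr11:33962763-33963062, plus strand) is shown as the member with opposite responses, Kcnc1 (chr7:46396218-46396517, plus strand) as a pore-forming gene that was higher in all 4 comparisons, Cacna2d2 (chr9:107399630-107399929, plus strand) as a member higher in RA-DIFF of cells labelled wild type alone, and Kcnj12 (chr11:61065554-61065853, plus strand), an inward rectifier, as a member lower in both lines.
Kcnmb1: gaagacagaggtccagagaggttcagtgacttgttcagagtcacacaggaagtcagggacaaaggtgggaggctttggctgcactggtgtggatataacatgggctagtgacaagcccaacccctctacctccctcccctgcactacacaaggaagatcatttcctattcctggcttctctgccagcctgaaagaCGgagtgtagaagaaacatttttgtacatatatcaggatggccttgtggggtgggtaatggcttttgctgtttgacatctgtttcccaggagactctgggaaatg
Kcnc1: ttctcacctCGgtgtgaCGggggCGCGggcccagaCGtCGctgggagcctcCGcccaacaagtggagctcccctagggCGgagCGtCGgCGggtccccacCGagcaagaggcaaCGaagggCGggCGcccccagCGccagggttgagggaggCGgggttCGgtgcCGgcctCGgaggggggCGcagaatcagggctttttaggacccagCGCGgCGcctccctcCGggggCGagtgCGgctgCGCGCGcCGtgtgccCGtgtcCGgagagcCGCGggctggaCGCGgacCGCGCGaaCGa
Cacna2d2: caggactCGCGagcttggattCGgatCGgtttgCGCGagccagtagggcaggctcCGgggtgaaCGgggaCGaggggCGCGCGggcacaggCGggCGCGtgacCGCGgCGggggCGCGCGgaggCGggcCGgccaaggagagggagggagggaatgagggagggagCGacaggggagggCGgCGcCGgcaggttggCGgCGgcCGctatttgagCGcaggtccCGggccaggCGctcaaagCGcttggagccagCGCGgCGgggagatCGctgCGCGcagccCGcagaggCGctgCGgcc
Kcnj12: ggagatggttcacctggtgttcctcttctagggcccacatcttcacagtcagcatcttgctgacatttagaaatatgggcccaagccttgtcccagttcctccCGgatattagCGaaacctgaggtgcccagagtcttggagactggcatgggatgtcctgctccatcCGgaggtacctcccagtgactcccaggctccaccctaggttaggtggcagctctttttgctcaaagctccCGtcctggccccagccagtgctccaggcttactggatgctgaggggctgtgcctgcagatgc

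The Kcnmb1 window holds 1 CpG and the Kcnj12 window 4, whereas Kcnc1 has 41 and Cacna2d2 43. Relative to the number that their base composition would give, the ratios were 0.0548, 0.165, 0.996 and 1.10. The first and last of these were the lowest and highest of all 97 members. The ratio of Kcnj12 was the lowest of the 8 members lower in both lines that had an entry. Over the 97 members the median ratio was 0.438, and 34 of them (35.1%) were above 0.6, against 47.6% of the 21262 protein-coding promoters in the table. Of the 39 members higher in both lines that had an entry, 17 (43.6%) were above 0.6, and of the 8 lower in both lines, 2 (25.0%) were. Short motifs were also searched on both strands. The GC box GGGCGG, which itself contains a CpG, was in 49 of the 97 windows (50.5%, and 46.2% of all). Above the expression limit it was in 56.2% of the 64 members and 62.1% of all protein-coding genes with an entry. The core motif AGGTCA of retinoic acid receptors was in 7 of the 97 (7.22%, and 14.7% of all). The left and right arms of the RE1 element that Rest binds, CAGCACC and GGACAGC, were in 8 (8.25%, and 7.24% of all) and 12 (12.4%, and 6.88% of all). Of the 39 members higher in both lines, 3 had the left arm (7.69%) and 2 the right arm (5.13%). Of the 8 lower in both lines, 1 had the left arm (12.5%) and 3 the right arm (37.5%). The canonical joined RE1 and the DR5 direct repeat of AGGTCA were in none of the 97, and in 10 and 1 of all 21262. A match is a description of the letters in this window and not of binding, and the annotated start need not be the one used in these cells. The Kcnj12 window lies inside the span of the gene as annotated for the counts (chr11:61022564-61071131), far from its 5′ end.

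The next comparison was between the genotypes in ESC. There, 6 members were higher in the Htt-null library and 4 lower, where 4.64% and 3.05% of all genes were, and the shares of the 88 members were 6.82% and 4.55%. The median log2 ratio of the members was -0.02, and that of all genes -0.04. Counted without the expression limit, 12 of 119 members were higher and 6 lower, where 9.44% and 5.05% of all genes were. Without the counting criterion 10 of the 88 were higher and 6 lower (5.14% and 3.51% of all genes). At a log2 limit of 1, 3 were higher and 3 lower (2.76% and 1.64% of all genes). With an exact test at an assumed dispersion of 0.1 and an unadjusted p under 0.05, Kcnc1 alone was higher and Kcnh8 alone lower (0.981% and 0.645% of all genes). By the limits without that test, the higher ones were Kcne1l, Kcnc1, Cacna1s, Kcnn3, Scn3a and Kcnu1, and the lower ones Kcnh8, Kcnd2, Kcna2 and Cacna2d3.

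Several of these rest on few counts. Kcne1l had 1 count in wild type and 7 in Htt-null (log2 ratio 3.22, interval 0.26 to 8.71), and Kcnc1 had 4 and 22 (2.87, 1.31 to 4.87). The 2 best counted were Cacna1s, with 422 and 786 counts, 2.48-fold higher in Htt-null (log2 ratio 1.31, interval 1.14 to 1.48), and Scn3a, with 224 and 291 counts, 1.73-fold higher (0.79, 0.53 to 1.05). Kcnu1 had 193 and 247 counts (0.77, 0.49 to 1.05; 0.74 and thus within the limit with RLE scaling) and Kcnn3 71 and 97 (0.86, 0.40 to 1.32). Of the lower members, Kcnh8 had 70 counts in wild type and 9 in Htt-null, 5.85-fold lower (log2 ratio -2.55, interval -3.74 to -1.54). Kcnd2 had 30 and 7 counts (-1.69), Kcna2 37 and 12 (-1.21) and Cacna2d3 82 and 33 (-0.90). The 10 members highest per kilobase in ESC all lay within the limits. Kcnk5 had 115 and 90.0 CPM (log2 ratio -0.35) and Cacna1a 50.9 and 62.5 CPM (0.30). Cacng6 lay furthest from 0 among them, with 1171 and 600 counts (-0.55). Outside these 10, Cacna1h had 1123 and 507 counts (-0.74, and -0.76 and thus past the limit with RLE scaling).

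Some values moved with the ESC comparison. Genes of chromosomes 8 and 11 had median log2 ratios of 0.36 and 0.22 between the ESC libraries, and all others -0.08. The 4 members above the limit on chromosome 8 had a median of 0.44, the 12 on chromosome 11 one of 0.14 and the other 72 one of -0.05. Kcnu1 lies on chromosome 8, and without both chromosomes 5 of 72 members were higher and 4 lower, where 4.01% and 3.35% of all 13453 remaining genes were. Of 12 fibroblast and mesenchyme markers, 7 were lower in Htt-null ESC and none higher, with sums of 45.8 and 29.4 CPM. Of the 5 cardiac and skeletal muscle markers above the limit, 4 were higher in Htt-null ESC and none lower, with sums of 11.2 and 19.2 CPM, in the same direction as Cacna1s. Of 12 neuron markers 2 were higher and none lower, with sums of 294 and 333 CPM, and the part of these in the members' values was not tested.

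**Figure D4:**
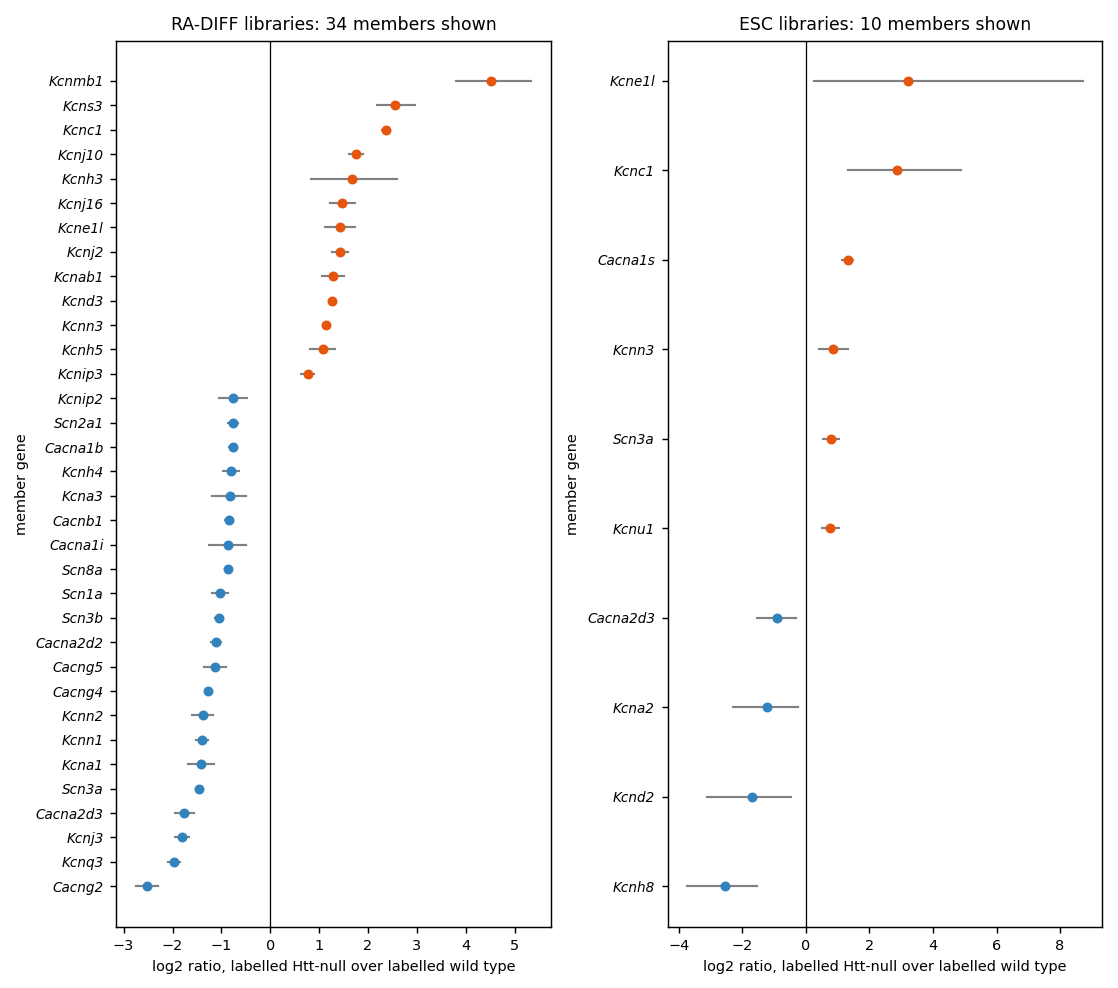
Log2 ratio of the Htt-null-labelled library over the wild-type-labelled library for members past the limits, in RA-DIFF (34 of the 37 members) and in ESC (10 members), with exact 95% counting intervals as grey lines (orange, higher in the Htt-null-labelled library; blue, lower). Of those plotted in RA-DIFF 13 are higher and 21 lower, from 4.52 for Kcnmb1 to -2.52 for Cacng2, and the ESC intervals of Kcne1l and Kcnc1 are the widest.

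The last comparison was between the RA-DIFF libraries. In the Htt-null-labelled library 14 members were higher and 23 lower, where 11.6% and 8.55% of all genes were. These are 15.9% and 26.1% of the 88 members. The median log2 ratio of the members was -0.22, against -0.01 over all genes. Counted without the expression limit, 22 of 129 members were higher and 32 lower, where 11.4% and 10.5% of all genes were. At a log2 limit of 1, 13 were higher and 15 lower (8.35% and 5.71% of all genes). With an exact test at an assumed dispersion of 0.1 and an unadjusted p under 0.05, 9 were higher and 10 lower (5.26% and 3.40% of all genes).

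The 23 lower members were spread over sodium, calcium and potassium channels. Of the sodium channel alpha subunits, Scn1a, Scn2a1, Scn3a and Scn8a were lower, by 2.04-fold, 1.69-fold, 2.74-fold and 1.83-fold, and the beta subunit Scn3b by 2.07-fold. Kcnq3 had 25.4 CPM in the wild-type-labelled library and 6.49 CPM in the one labelled Htt-null, 3.91-fold lower, and Kcnq5 lay within the limits (3.21 and 4.15 CPM). Of the AMPA receptor gamma subunits, Cacng2, Cacng4 and Cacng5 were lower by 5.72-fold, 2.41-fold and 2.19-fold, while Cacng7 and Cacng8 lay within the limits on either side of 0, with log2 ratios of -0.53 and 0.62 (interval 0.47 to 0.77 for the second). Cacng2 had the lowest log2 ratio of all members above the limit, -2.52 (interval -2.74 to -2.30), on 1244 and 191 counts.

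Calcium channel subunits on this side were Cacna1b (36.6 and 21.6 CPM), Cacna1i (1.60 and 0.873 CPM), Cacnb1 (34.8 and 19.5 CPM), Cacna2d2 (27.3 and 12.6 CPM) and Cacna2d3 (9.79 and 2.89 CPM), the last 3.38-fold lower. No alpha1, alpha2delta, beta or gamma subunit of calcium channels was higher. Of the potassium channels, Kcnj3 was 3.50-fold lower (1852 and 465 counts), Kcna1 2.66-fold, Kcnn1 2.63-fold, Kcnn2 2.61-fold, Kcna3 1.78-fold, Kcnh4 1.75-fold and the Kcnd partner Kcnip2 1.69-fold. With RLE scaling Kcnip2 (-0.74) and Scn2a1 (-0.75) fell just inside the limit.

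Among the 14 higher members, Kcnmb1 led with 16 counts in the wild-type-labelled library and 322 in the one labelled Htt-null, 22.9-fold higher (log2 ratio 4.52, interval 3.80 to 5.34). Kcns3 was 5.89-fold higher (68 and 352 counts) and Kcnc1 5.16-fold (1625 and 7373). The rectifiers Kcnj10, Kcnj16 and Kcnj2 were 3.37-fold, 2.77-fold and 2.69-fold higher, and Kcnj16 and Kcnj2 are neighbours on chromosome 11, at 110968033 to 111027968 and 111066164 to 111076821. Kcnd3 (38.9 and 93.8 CPM) and Kcnn3 (35.8 and 78.4 CPM) were 2.41-fold and 2.19-fold higher. Kcnh3, Kcne1l, Kcnab1, Kcnh5 and Kcnip3 were also higher, with log2 ratios between 0.76 and 1.68, of which Kcnip3 fell inside the limit (0.71) when scaled by library size alone.

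Related genes within a family therefore lay on opposite sides. Kcnn3 was higher and Kcnn1 and Kcnn2 lower, Kcnj10 higher and Kcnj3 lower, and Kcnh3 and Kcnh5 higher and Kcnh4 lower. Of the 48 members higher with differentiation in both lines, 9 were higher, 13 lower and 26 neither in the Htt-null-labelled library, where 15.5% and 13.1% of all 4469 genes higher in both lines were. Among the 26, Cacna1g (98.6 and 118 CPM), Cacna1h (65.7 and 70.4 CPM) and Kcnk2 (36.2 and 38.9 CPM) had nearly the same level in both RA-DIFF libraries. Of the 15 members lower in both lines, Kcnh3 was higher and Kcnip2 lower past the limits between the RA-DIFF libraries and the other 13 lay within them, where of all 3274 genes lower in both lines 399 (12.2%) were higher and 360 lower.

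Cell type markers moved with this comparison. Of 12 neuron markers 9 were lower in the Htt-null-labelled library and none higher, with a summed level of 3053 CPM in the wild-type-labelled library and 1448 CPM in the one labelled Htt-null. Of 12 fibroblast and mesenchyme markers 11 were higher and none lower, with sums of 657 and 2531 CPM, among them the smooth muscle actin Acta2 with 41.0 and 635 CPM. Of 10 pluripotency markers 9 were lower and none higher, with sums of 65.7 and 17.5 CPM, and of 10 neural progenitor markers 4 were lower and none higher, with sums of 2882 and 2831 CPM. Of 5 astrocyte markers 1 was higher and 1 lower, with sums of 233 and 363 CPM, and of 6 endothelium markers 3 were higher and 1 lower, with sums of 23.9 and 88.6 CPM. No gene of these lists was at 0 in every library, and their part in the members' differences was not tested. Of the 15 lower members with a promoter entry, 10 (66.7%) had a CpG ratio above 0.6, and of the 12 higher ones 3 (25.0%) did. Among all protein-coding genes with an entry the shares were 49.5% of 1039 lower and 47.8% of 1670 higher ones, and of those above the expression limit 67.0% had such a ratio, against 43.8% of the 64 members above it. Of the promoters shown, Cacna2d2, with 43 CpG in its window, was among the lower ones. Kcnmb1, with 1, and Kcnc1, with 41, were both among the higher ones.

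Scn3a was past the limits in opposite directions at the stages, higher in Htt-null ESC and lower in the Htt-null-labelled RA-DIFF library, whereas Cacna2d3 was lower at both and Kcnc1, Kcne1l and Kcnn3 were higher at both. The other 5 members past the limits in ESC lay within them in RA-DIFF, with log2 ratios there of -0.19 for Cacna1s, 0.10 for Kcnu1, -0.23 for Kcnh8, -0.27 for Kcnd2 and 0.67 for Kcna2. Of all 1191 genes past the limits in ESC, 58.9% lay within them in RA-DIFF, 16.4% were past them in the same direction and 24.8% in the opposite one, beside 5, 4 and 1 of these 10 members. The difference between the stages was not tested. These directions rest on the RA-DIFF labels, which are in doubt. With the labels exchanged, Scn3a would be higher at both stages, and Cacna2d3, Kcnc1, Kcne1l and Kcnn3 would go in opposite directions. The all-gene shares of 16.4% and 24.8% would then trade places.

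The 44 members under the expression limit were listed as well. In 30 of them the level stayed under 1 CPM in every library, and 14 reached 1 CPM or more in at least 1. Cacna1i and Cacna2d4 lay just inside the limit and Kcnn4 and Scn7a just outside, the last of these with 0 counts in both ESC libraries, 109 counts in the wild-type-labelled RA-DIFF library and 273 in the one labelled Htt-null. Scn7a, a sodium-sensing channel, reached 2.77 CPM in the latter. By fold and counting interval alone, 16 of the 44 were higher and 13 lower in RA-DIFF in cells labelled wild type, where 20.2% and 27.7% of the 5096 protein-coding genes under the limit were. The Htt-null-labelled line had 15 and 12, beside 19.2% and 29.0% of those genes. Members at 0 in both ESC libraries were Scn7a, Kcna4 (0, 0, 229 and 70 counts), Kcnk9 (0, 0, 143 and 28 counts) and, above the limit, Kcnk10. In the other direction Kcna7, a Kv1 gene, had 136 and 145 counts in ESC and 0 and 4 in RA-DIFF. With the 0 set at 3 counts, it was 58.6-fold lower in cells labelled wild type (log2 ratio -5.87, interval from -5.55 downward). In cells labelled Htt-null it was 54.7-fold lower (log2 ratio -5.77, interval -7.67 to -4.39). Between the RA-DIFF libraries 8 of the 44 were higher (12.6% of such genes) and 9 lower (9.14%) in the one labelled Htt-null, and in ESC 6 were higher (714 of the 5096 such genes) and 2 lower (6.34%) in Htt-null.

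Genes that work with these channels but fall outside the rule were counted for comparison: 29 genes, among them those for HCN channels, the sodium leak complex, ankyrins, channel-binding fibroblast growth factors, Kcnd partners, small G proteins that act on calcium channels, Stac adaptors, contactin-associated proteins and the repressor Rest. Of these, 26 were above the limit. With differentiation, 21 were higher and 4 lower in each line, beside 59 and 17 of 88 members in cells labelled wild type. Of all genes, 34.0% and 26.2% were higher and lower in cells labelled wild type, and 34.4% and 24.9% in cells labelled Htt-null. In ESC 5 of the 26 were higher and 2 lower in Htt-null (4.64% and 3.05% of all genes). In RA-DIFF 1 was higher and 9 lower in the Htt-null-labelled library (11.6% and 8.55% of all genes). Rest, which represses many neuronal channel genes outside neurons, had 196 and 166 CPM in ESC and 64.4 and 97.6 CPM in RA-DIFF, and the log2 ratio between the RA-DIFF libraries was 0.60.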

How the data were processed

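Poly-A RNA-Seq libraries of 4 conditions (1 each, of 8 samples in the series) were used; the small RNA table was not used here. The authors aligned 50 bp paired reads with TopHat2 2.0.14 to GRCm38.p4 and deposited raw counts per gene, made with HTSeq 0.6.1 on Gencode genes. The libraries were strand-specific (dUTP) and programs ran at default settings where the methods name no other; no strand option is named, and whether the counting kept the strands apart was not tested. Of the 132 members, 46 overlap a gene on the other strand and 22 a gene on their own. All columns of samples were mapped (0 unused).

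Counts were scaled with TMM over all genes in edgeR 4.0.16 (R 4.3.3); levels per kilobase used the union of exons. Limits were a log2 ratio beyond 0.75, an edgeR average log2 CPM above 0 and an exact Clopper-Pearson 95% counting interval leaving out 1. With 1 library per condition the main results carry no test and no p-value; tests entered only as alternatives. Reads of amplified libraries are not independent molecules, so intervals and the 3-count floor cover counting error only. Ratios against 0 counts are bounds at that floor. Simulated 4-fold changes in 200 of 15492 genes were recovered in 200 cases in each of the 4 simulated comparisons, with 17 to 29 unchanged genes called. The simulated counts carried counting error alone, and the changed genes had at least 100 counts in the library they were drawn from. Recovery of changes in genes with fewer counts, and calls from the spread between cultures, were therefore not covered.

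Members and lists were chosen with earlier results of these data known. Named by rule were the 10 largest increases and decreases per comparison with at least 100 counts, the 10 highest members per kilobase at each stage and in each family the highest, members past the limits in ESC or in opposite directions, and 2 on each side of the expression limit; other members were named after their values were seen, to account for the families. The results of some members are not reported here by name; they remain in the counts and sums. The study's listed values were used only to check the labels. Promoters (RefSeq, GRCm38.p6) were matched by symbol, 1 by synonym. Those not matched included Cacna1a, Cacna1g, Cacna1h, Cacna2d4, Cacng1, Cacng4, Kcna1, Kcnab3, Kcnb2, Kcnd1, Kcne1, Kcng1, Kcng2, Kcnh3, Kcnj11, Kcnj14, Kcnk3, Kcnk6, Kcnk9, Kcnn2, Kcnq1, Kcnq3, Kcns2, Kcnt1, Kcnu1, Kcnv1, Kcnv2, Scn3a and Scn3b. Alternatives were RLE factors, library size alone, no expression limit, a log2 limit of 1, no counting criterion, a prior count of 2, an exact test at assumed dispersions of 0.01 and 0.1, exchanged RA-DIFF labels and, added after seeing the data, edgeR's quasi-likelihood test of differentiation with the line as a block, also with exchanged labels.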

Additional observations from a re-analysis of the deposited data

Results flagged for a closer look

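Kcnmb1 was lower in RA-DIFF than in ESC in cells labelled wild type, with a log2 ratio of -1.41, and higher in cells labelled Htt-null, with 3.21. It was singled out because the lines moved in opposite directions. With 1 library per condition the difference was not tested, and exchanging the RA-DIFF labels exchanges the directions.

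Scn3a was higher in Htt-null than in wild-type ESC, with a log2 ratio of 0.79, and lower in the Htt-null-labelled RA-DIFF library than in the one labelled wild type, with -1.45. It was singled out because the stages moved in opposite directions. The difference was not tested, and with the RA-DIFF labels exchanged both ratios are above 0.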

How the results depend on the processing

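Each condition is a single library, so counting depth sets the intervals but nothing measures the spread between cultures. No replicate could be left out. With the line as a replicate block (2 pairs, 1 residual degree of freedom, added after seeing the data), edgeR's quasi-likelihood test at an adjusted p under 0.05 and the same fold limit had 48 of 88 members higher in RA-DIFF and 12 lower, where 25.9% and 23.3% of all genes were. This pairing rests on the RA-DIFF labels that are in doubt, and with these exchanged the same fit had 46 higher and 12 lower (26.8% and 24.0%). Genotype was not fitted across the stages, for the same doubt. Scaling by RLE factors or by library size alone shifted the median of all genes by at most 0.07 on the log2 scale and reversed no named member. Library size alone ended the calls of Kcnd1 (-0.72) and 1 other member in cells labelled wild type and of Kcnip3 (0.71) between the RA-DIFF libraries, and added Kcns3 (-0.79) as lower in cells labelled Htt-null. RLE factors ended those of Kcnu1 in ESC (0.74) and of Kcnip2 (-0.74) and Scn2a1 (-0.75) between the RA-DIFF libraries, and added Cacna1h in ESC (-0.76) and Kcnip1 in RA-DIFF (0.75). Without the expression limit, 30 members were lower in RA-DIFF in cells labelled wild type and 28 in cells labelled Htt-null, with medians of 1.51 and 1.12, and 12 were higher in Htt-null ESC and 22 in the Htt-null-labelled RA-DIFF library, since more genes enter. At a log2 limit of 1, 3 were higher in Htt-null ESC and 15 lower in the Htt-null-labelled RA-DIFF library (2.76% and 5.71% of all genes). Without the counting criterion 10 were higher in Htt-null ESC (11.4% of members, 5.14% of all genes). With an exact test at an assumed dispersion of 0.1 (unadjusted p under 0.05), 1 member was higher in Htt-null ESC and 1 was lower (1.14% each of the 88, beside 0.981% and 0.645% of all genes), and 9 were higher and 10 lower in the Htt-null-labelled RA-DIFF library (10.2% and 11.4%, beside 5.26% and 3.40%). An expression limit on the mean of the log2 values, and leaving out chromosomes 8 and 11 in ESC, were added after seeing the data and moved no count by over 1.5 times.

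With the RA-DIFF labels exchanged, the medians were 1.61 in cells labelled wild type, 1.99 in cells labelled Htt-null and 0.22 between the RA-DIFF libraries, where 23 members were then higher and 14 lower. The response to differentiation turned to -0.26 for Cacna2d2 and 3.10 for Kcnmb1 in cells labelled wild type, and to -1.30 for Kcnmb1 in cells labelled Htt-null. Other responses changed as well, each by the log2 ratio of that member between the RA-DIFF libraries. The folds given for 1 line therefore depend on the labels. Between the RA-DIFF libraries the log2 ratios turned by construction, to 0.76 for Cacna1b, Kcnip2 and Scn2a1, 0.80 for Kcnh4, 0.83 for Kcna3, 0.84 for Cacnb1, 0.87 for Cacna1i, 0.88 for Scn8a, 1.03 for Scn1a, 1.05 for Scn3b, 1.11 for Cacna2d2, 1.13 for Cacng5, 1.27 for Cacng4, 1.38 for Kcnn2, 1.40 for Kcnn1, 1.41 for Kcna1, 1.45 for Scn3a, 1.76 for Cacna2d3, 1.81 for Kcnj3, 1.97 for Kcnq3 and 2.52 for Cacng2. They turned to -1.13 for Kcnn3, -1.27 for Kcnab1 and Kcnd3, -1.43 for Kcne1l and Kcnj2, -1.47 for Kcnj16, -1.68 for Kcnh3, -1.75 for Kcnj10, -2.37 for Kcnc1, -2.56 for Kcns3 and -4.52 for Kcnmb1.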

Other observations

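Some transcripts carry the name of a channel gene but are not protein-coding and so are no members. Kcnq1ot1, the long RNA that overlaps Kcnq1 on the other strand, had 3691 and 3571 counts in ESC labelled wild type and Htt-null and 10768 and 9834 in RA-DIFF, while Kcnq1 itself had 34 and 20 counts in ESC and 9 and 6 in RA-DIFF. Kcnmb4os2 had 13 and 7 counts in ESC and 125 and 122 in RA-DIFF, beside 51 and 54, then 473 and 521, for Kcnmb4 on the other strand. Kcnd3os had 0 counts in both ESC libraries and 20 and 31 in RA-DIFF. Whether the counting kept the strands apart was not tested here, so reads of such pairs may be mixed.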
